A study of Homo sapiens with 6 samples.

Results

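Interferon-stimulated genes are the genes that cells switch on when an interferon, a secreted antiviral cytokine, binds its receptor. A panel of 49 of them was followed here in LS174T, a line from a human colorectal adenocarcinoma; its labels call it goblet-like, after the mucus-making cell of the intestine. Members were taken by gene symbol from the deposited table, and 49 of 49 were found among its 58735 named genes. The 2 groups were wild-type cells and cells whose genotype label reads FXYD3 knockout, with 3 libraries in each. About 2000000 cells were pelleted for each sample, and polyadenylated RNA was sequenced. No interferon, virus or other treatment is named in the labels, so the levels are those of cultured cells as grown. The sources do not say how the FXYD3 gene was edited or how many clones were used. Nor is it stated whether replicate libraries are separate cultures, so a p-value here reflects library-to-library spread that could be purely technical.

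Type I and type III interferons act through cell surface receptors that carry the kinases JAK1 and TYK2. The kinases activate a transcription factor complex that contains STAT2 and IRF9. This complex binds the interferon-stimulated response element, a short DNA motif in the promoters of many responding genes. The products include sensors of viral RNA, enzymes that degrade or edit RNA, proteins that trap virus particles at membranes, a ubiquitin-like modifier, and proteasome subunits that shape the peptides shown to T cells. Gut epithelium is known for answering mainly to type III interferon, and many of these genes also have a low basal level without infection.

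The motif itself is shown first, because the complex binds DNA at sites with such letters. A match of letters alone does not show that a site is a working element. RefSeq promoter windows of 300 bases, from 250 bases before to 50 after the start on GRCh38.p14, were present for 40 of the 49 genes. The letters searched on both strands were GAAA and, after a gap of 2 bases of any kind, GAAA again. They were in a window of 25 of these 40 genes (62.5%), and in 4.38% of the 27305 gene symbols with a window. The letters TTCNNNGAA, which read the same on both strands and resemble the element used by interferon gamma, were in 11 of the 40 (27.5%) and in 9.38% of all symbols. Matches of both motifs can share bases. Below are the stretches from 5 of the genes with at least 2 such matches close together, written 5′ to 3′ on the strand of the gene. Others, among them IFIH1 (not called) and HERC5 (not tested), also hold such matches and are not shown. The outcomes of the shown genes are therefore those of a chosen set. Matches are in capitals, and a match on the opposite strand appears as TTTC, the gap and TTTC. IFI6 (chr1:27672273-27672372, minus strand), IFI27 (chr14:94110556-94110655, plus), ISG15 (chr1:1013317-1013416, plus) and IFIT1 (chr10:89392443-89392542, plus) are shown from 180 to 81 bases before the RefSeq start. BST2 (chr19:17405738-17405767, minus) is shown from 137 to 108 bases before its start. These 30 bases of BST2 also lie in an exon of MVB12A, a gene read in the opposite direction. IFI6, IFI27 and IFIT1 were higher in the knockout-labelled libraries, ISG15 did not pass the test and BST2 was lower, as described further on.
IFI6: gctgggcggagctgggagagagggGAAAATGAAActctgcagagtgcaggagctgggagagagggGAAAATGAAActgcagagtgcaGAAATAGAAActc
IFI27: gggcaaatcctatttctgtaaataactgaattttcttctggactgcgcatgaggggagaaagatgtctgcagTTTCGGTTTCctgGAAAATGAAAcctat
ISG15: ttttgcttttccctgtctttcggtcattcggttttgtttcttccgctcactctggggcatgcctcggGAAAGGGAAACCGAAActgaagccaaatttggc
IFIT1: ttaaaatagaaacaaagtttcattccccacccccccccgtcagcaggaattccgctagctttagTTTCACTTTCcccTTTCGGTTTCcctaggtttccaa
BST2: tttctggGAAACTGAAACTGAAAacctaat

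The libraries held 15417232 to 19453217 counts in named genes. Levels are given as CPM, TMM-scaled counts relative to library size, and every log2 change is a fitted log2 fold change, knockout-labelled over wild type, with its standard error (SE). The targeted gene FXYD3 had 3.12, 5.11 and 3.42 CPM in wild type and 5.11, 6.7 and 5.06 CPM in the knockout-labelled libraries. FXYD3 RNA was therefore no lower in the knockout-labelled group, and directions in the text go by the library labels. Its log2 change was 0.54 ± 0.20 (SE), upward but not called (adjusted p = 0.0522). RNA counts do not measure FXYD3 protein. The summed level of 8 epithelial markers was high in every library (9510 to 11000 CPM), and most of it was KRT8. Among them CDX1 (means of 190 and 119 CPM) and CDH1 (38.1 and 29.6 CPM) were called lower in the knockout-labelled libraries. Of 8 leukocyte markers, PTPRC, CD3D, CD3E and MS4A1 had 0 counts in all libraries. The leukocyte sum was 3.54 to 5.03 CPM in wild type and 0.357 to 0.87 CPM in the knockout-labelled libraries, and most of it was CD14, with means of 3.71 and 0.388 CPM. The part of these markers in the results was not tested. A sum of 6 endothelial and fibroblast markers was 0.694 to 1.8 CPM in wild type and 1.49 to 2.07 CPM in the knockout-labelled libraries. In bulk RNA, fewer cells that express a gene and less of its RNA per cell cannot be told apart.

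More interferon-stimulated genes were higher than lower in the knockout-labelled libraries, and the changes ran in both directions. After a filter on low counts 46 of the 49 were tested with edgeR over 15351 genes, and a gene was called at an adjusted p below 0.05. Of the 46, 23 were higher (50%), against 12.0% of all tested genes. Another 5 were lower (10.9%), against 12.4% of all tested genes, and 18 were not called. The groups by role described below hold few genes each, and their counts are to be set against these same shares. At a log2 fold change of at least 1, 8 were called higher (background 3.18%) and 2 were called lower (background 2.92%). Both the 23 and the 8 higher genes include IFIT2, MX2 and SAMD9L, which met the filter on low counts only through the knockout-labelled libraries. The median log2 fold change of the 46 was 0.26, from -2.53 to 2.10, beside 0.00 over all tested genes. In 27 genes all 3 knockout-labelled libraries were above all 3 wild-type libraries, and in 5 all were below, against 18.6% of tested genes for each direction. The summed level of the 49 genes was 1576, 1563 and 1599 CPM in wild type and 1772, 1846 and 1820 CPM in the knockout-labelled libraries. Without knockout-labelled library 3 the counts were 20 higher and 3 lower. All tested genes then had 1380 higher and 1376 lower, against 1839 and 1896 with all libraries.

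**Figure D1:**
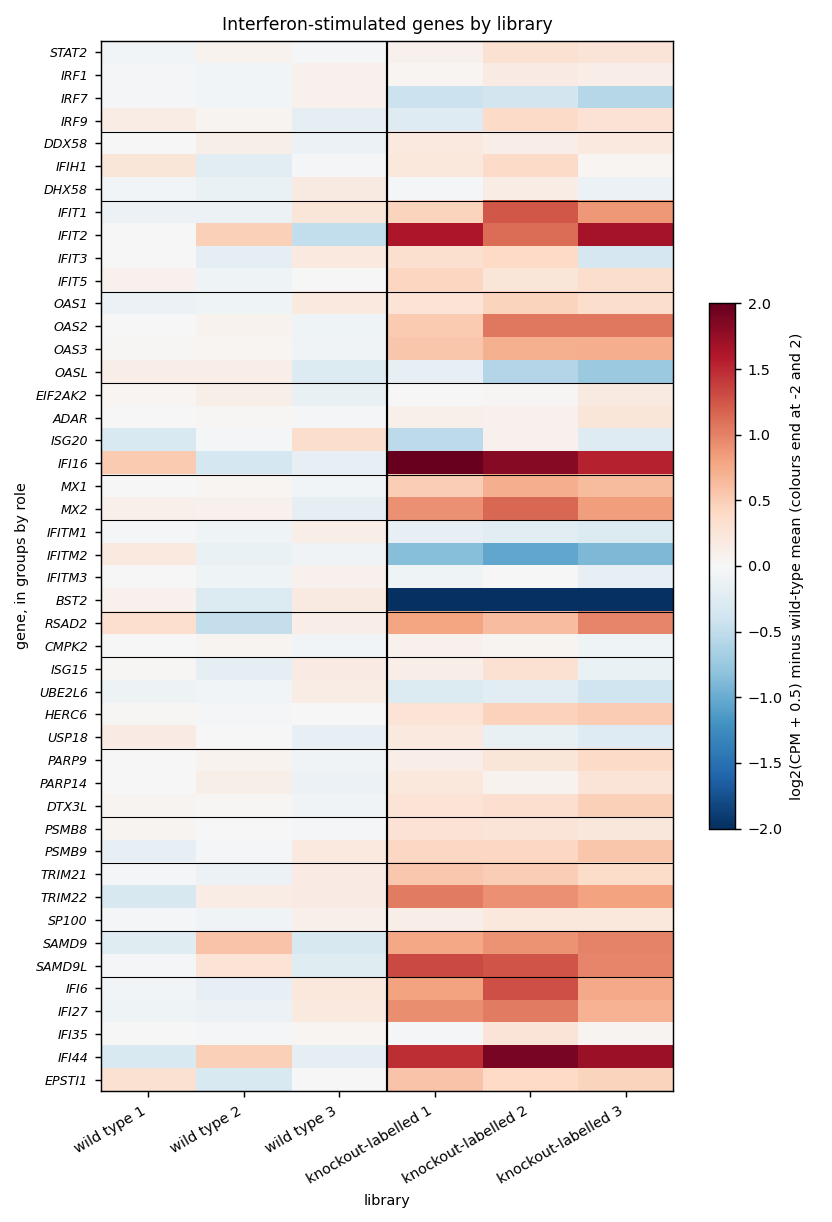
Level of the 46 tested genes (rows, in groups by role) in each of 6 libraries (columns), as log2(CPM + 0.5) minus the gene's wild-type mean. Red is above and blue below the wild-type mean, and the colours end at -2 and 2. BST2 is the darkest blue row in the knockout-labelled libraries, while IFI16 and IFI44 are among the darkest red rows.

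Of the 4 transcription factors that act on these genes, STAT2 was called higher, IRF7 was called lower, and IRF1 and IRF9 were not called. STAT2, a subunit of the interferon-activated complex, was at 32.5, 35.6 and 33.2 CPM in wild type and 36, 41.9 and 40.6 CPM in the knockout-labelled libraries, without overlap. Its log2 change was 0.23 ± 0.08 (SE; adjusted p = 0.0425). It no longer passed with DESeq2 (adjusted p = 0.0763), without the filter on low counts (0.0769), nor on leaving out wild-type library 1 (0.188) or 3 (0.0941), or knockout-labelled library 2 (0.184) or 3 (0.135). IRF9, the DNA-binding subunit of the same complex, was scarce, at 0.796 ± 0.158 CPM in wild type and 0.944 ± 0.318 CPM in the knockout-labelled libraries (SD, n = 3 each; adjusted p = 0.705). Its value is uncertain, because 43.8% of its 50-base stretches also occur in another annotated gene. IRF7, the factor that amplifies interferon production, fell from 58.3, 57.5 and 63.2 CPM to 43.9, 46 and 40.2 CPM (log2 change -0.46 ± 0.08 SE, adjusted p = 3.43e-05). Its highest knockout-labelled library was below its lowest wild-type library. IRF1, an activator that also responds to interferon gamma, had 12.9 ± 0.725 and 14 ± 0.671 CPM and was not called (adjusted p = 0.474), and 22% of its 50-base stretches occur in other genes.

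None of the 3 cytoplasmic sensors of viral RNA was called by edgeR, beside 24.3% of all tested genes called in either direction. The count at an unadjusted p below 0.05 was 0 of 3, and DESeq2 and limma voom also called 0. DDX58, which encodes RIG-I, a receptor for short viral RNA ends, was at 15.5 ± 1.32 CPM in wild type and 17.6 ± 0.42 CPM in the knockout-labelled libraries. IFIH1, which encodes MDA5, a receptor for long viral RNA, was at 6.94 ± 1.19 and 8.09 ± 1.01 CPM. DHX58, the regulatory relative of both, was at 10.7 CPM in each group, with a 95% interval of its log2 fold change from -0.26 to 0.27.

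Of the 4 IFIT genes, whose proteins bind foreign RNA and hold back its translation, 3 were higher, beside 12.0% of all tested genes. IFIT2 had 0.463, 0.843 and 0.186 CPM in wild type and 2.46, 1.59 and 2.56 CPM in the knockout-labelled libraries. Its log2 change was 2.10 ± 0.41 (SE; adjusted p = 0.000343), at a low level in both groups. With 8, 15 and 3 counts in wild type, IFIT2 met the filter (minimum count of 10) only through the knockout-labelled libraries. Its log2 change was 2.71 without wild-type library 2 and 1.72 without wild-type library 3. IFIT1 rose from 1.97, 1.97 and 2.67 CPM to 3.17, 5.83 and 4.41 CPM (log2 change 1.04 ± 0.25 SE, adjusted p = 0.00231). The knockout-labelled values of both genes lay above all their wild-type values. IFIT5 was the most abundant of the family and changed less, from 18 ± 1.12 to 23 ± 1.58 CPM (log2 change 0.35, adjusted p = 0.00943). Without knockout-labelled library 1 its adjusted p was 0.058. IFIT3, the partner that stabilises IFIT1, was at 1.36 ± 0.246 and 1.57 ± 0.538 CPM, its groups overlapped and it was not called (adjusted p = 0.701). The 4 genes lie together on chromosome 10 between 89283694 and 89421001, in the order IFIT2, IFIT3, IFIT1 and IFIT5. IFIT2 shares 356 exonic bases with AL353751.1 on the same strand, which had 0 counts over the 6 libraries. IFIT2 also shares 65 exonic bases with LIPA on the opposite strand, which had 3651 counts over the 6 libraries against 138 for IFIT2. LIPA itself was not called (log2 change -0.16).

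The oligoadenylate synthetases, which make the messenger that activates the RNA-cutting enzyme RNase L, were also mostly higher. This held for 3 of 4, beside 12.0% of all tested genes. OAS3 was the most abundant, at 101, 102 and 94.3 CPM in wild type and 146, 162 and 165 CPM in the knockout-labelled libraries. With a log2 change of 0.67 ± 0.06 (SE; adjusted p = 2.15e-09) it had the smallest adjusted p among the genes that rose. OAS2 rose from 1.16, 1.24 and 1.06 CPM to 1.87, 2.92 and 2.92 CPM (log2 change 1.16 ± 0.30 SE, adjusted p = 0.00519). OAS1 rose from 36.3 ± 4.59 to 46.4 ± 2.88 CPM (log2 change 0.36, adjusted p = 0.00301). In these genes no knockout-labelled library fell inside the wild-type range. They form a row on chromosome 12, OAS1 at 112906777 to 112933222, OAS3 at 112938352 to 112973249 and OAS2 at 112978395 to 113011723, all on the plus strand. OASL, a relative without synthetase activity, lies apart at 121019111 to 121039242 on the minus strand. It had 4.28, 4.27 and 3.1 CPM in wild type and 3.36, 2.4 and 2.09 CPM in the knockout-labelled libraries, which overlap. OASL was not called (log2 change -0.58 ± 0.24 SE, adjusted p = 0.0769), and it passed as lower without wild-type library 3 (adjusted p = 0.0368) or knockout-labelled library 1 (0.036).

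Among the other proteins that act on nucleic acids, IFI16 stood out. IFI16, a nuclear sensor of DNA, had 3.12, 1.46 and 1.74 CPM in wild type and 10.5, 8.39 and 6.79 CPM in the knockout-labelled libraries. Its lowest knockout-labelled value was above its highest wild-type value, with a log2 change of 2.02 ± 0.23 (SE; adjusted p = 8.62e-07). ADAR, the enzyme that edits adenosine in base-paired RNA, was far more abundant, at 367, 373 and 361 CPM in wild type and 392, 391 and 432 CPM in the knockout-labelled libraries. The ADAR groups did not overlap, but the difference was small and missed the threshold (log2 change 0.14 ± 0.06 SE, adjusted p = 0.0741). It passed under 4 alternatives, at 0.0359 to 0.049, among them without wild-type library 2 (0.043). EIF2AK2, which encodes PKR, the kinase that stops translation on viral RNA, was at 78.8 ± 7.54 and 82.4 ± 5.66 CPM (adjusted p = 0.584). ISG20, an RNA-degrading exonuclease, was at 5.98 ± 1.53 and 5 ± 1.16 CPM (adjusted p = 0.427).

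Both Mx GTPases, which block the nucleocapsids of incoming viruses, were higher, beside 12.0% of all tested genes. MX2 met the filter on low counts only through the knockout-labelled libraries, where it was high. The share of higher genes in this pair was therefore partly set by the filter. MX1 had 22, 22.5 and 20.9 CPM in wild type and 30.9, 36.4 and 34 CPM in the knockout-labelled libraries (log2 change 0.63 ± 0.09 SE, adjusted p = 3.13e-06). MX2 was near the limit of detection, with 7, 7 and 4 counts in wild type and 17, 27 and 17 counts in the knockout-labelled libraries. These counts correspond to 0.405, 0.393 and 0.248 CPM and to 1.1, 1.38 and 1.01 CPM (log2 change 1.72 ± 0.45 SE, adjusted p = 0.00536). The groups of both genes were fully separated. MX2 and MX1 are neighbours on chromosome 21, 10914 bases apart.

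Of the 4 genes for proteins that restrict viruses at membranes, 3 were called lower and 0 higher, beside 12.4% and 12.0% of all tested genes. The 3 calls are not separate, since IFITM1 and IFITM2 share exons, and the IFITM1 call was lost under several alternatives given below. BST2, also called tetherin, which ties budding virus particles to the cell surface, was at 24.8, 19.3 and 26.5 CPM in wild type and 3.94, 3.89 and 4.35 CPM in the knockout-labelled libraries. The lowest wild-type library was far above the highest knockout-labelled one. BST2 fell from 23.5 ± 3.79 to 4.06 ± 0.252 CPM (SD, n = 3 each), a log2 change of -2.53 ± 0.14 (SE; adjusted p = 6.37e-14). This was the lowest fitted change and the smallest adjusted p among the tested members. The gene lies on chromosome 19 at 17402939 to 17405648 on the minus strand. A pair of genes starts close to BST2 in the opposite direction. BISPR, a long non-coding RNA whose start is 38 bases away, had 12, 22 and 26 counts in wild type and 9, 10 and 9 in the knockout-labelled libraries and was not called (log2 change -1.11, adjusted p = 0.0602). MVB12A, a protein-coding gene whose start is 74 bases away, went from 58.8 ± 5.7 to 50.2 ± 4.87 CPM (log2 change -0.23, adjusted p = 0.0473), with overlapping groups.

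The IFITM proteins sit in endosomal and plasma membranes and keep viruses from fusing with them. IFITM2 had 5.78, 4.5 and 4.72 CPM in wild type and 2.52, 2.15 and 2.44 CPM in the knockout-labelled libraries, with no overlap. Its log2 change was -1.08 ± 0.21 (SE; adjusted p = 0.000318). IFITM1 had 37, 35.9 and 41.7 CPM in wild type and 33.8, 32.4 and 31.3 CPM in the knockout-labelled libraries (log2 change -0.23 ± 0.08 SE, adjusted p = 0.0389). The IFITM1 difference was small, and its call was lost with DESeq2 (adjusted p = 0.0623), with upper-quartile scaling (0.0612), with total counts (0.0672), and on leaving out wild-type library 1 (0.07) or 3 (0.19), or knockout-labelled library 1 (0.0561), 2 (0.0932) or 3 (0.144). IFITM3, the most abundant member per kilobase, had 171, 162 and 183 CPM in wild type and 162, 173 and 153 CPM in the knockout-labelled libraries. Its groups overlapped and it was not called (log2 change -0.08 ± 0.06 SE, adjusted p = 0.391). In the deposited annotation IFITM2 (chromosome 11, 307631 to 315272) runs over IFITM1 (313506 to 315272) on the same strand. They share 351 exonic bases, and 34.3% of the 50-base stretches of IFITM2 occur in other genes, so the split of reads between both is uncertain. For IFITM3 the share was 35.2%. Its main partner, AC136475.5 on the opposite strand, shares 287 exonic bases with it and had 1 count over the 6 libraries against 17222 for IFITM3. Further genes that hold stretches of IFITM2 or IFITM3 were not examined one by one, so reads of both may also be split with those. BST2 shares no such stretch with another gene.

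**Figure D2:**
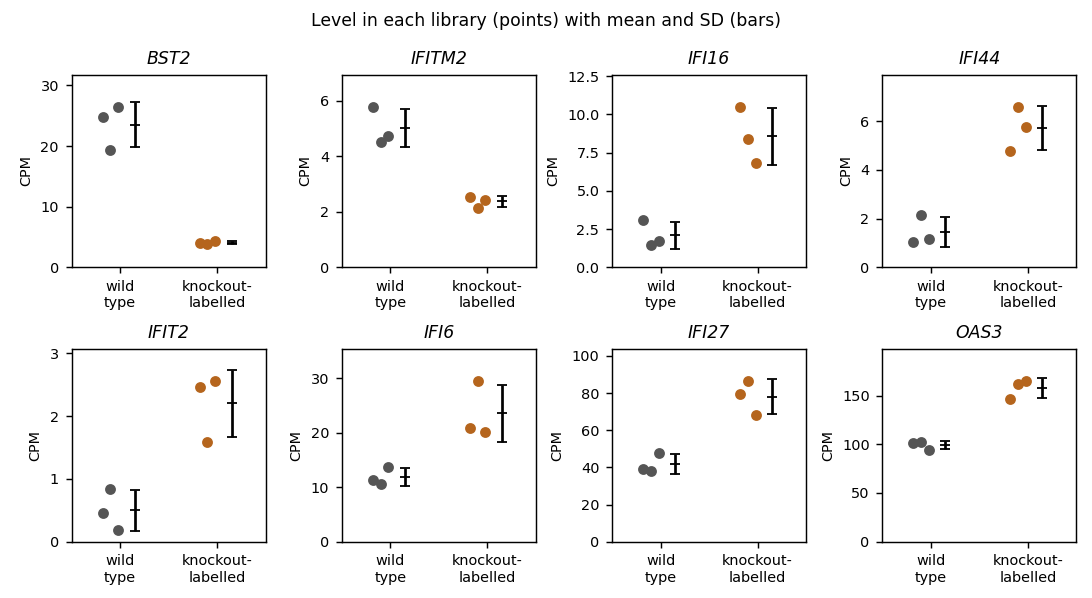
Level in CPM (vertical axes, from 0) of BST2, IFITM2, IFI16, IFI44, IFIT2, IFI6, IFI27 and OAS3 in the 3 wild-type and 3 knockout-labelled libraries. Points are libraries, and the bar beside them is the mean with its SD. BST2 and IFITM2 are lower and the other 6 genes are higher in the knockout-labelled libraries, with no overlap in any of the 8.

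RSAD2, which encodes viperin, an enzyme that makes a chain-terminating nucleotide, had 2.14, 1.01 and 1.8 CPM in wild type and 3.1, 2.71 and 3.63 CPM in the knockout-labelled libraries. RSAD2 was called higher (log2 change 0.93 ± 0.28 SE, adjusted p = 0.0158), but not without wild-type library 2 (adjusted p = 0.0774) or knockout-labelled library 3 (0.0807). CMPK2, the nucleotide kinase gene that overlaps it head to head on chromosome 2, was at 18.1 ± 0.719 and 18.4 ± 1.15 CPM and was not called (log2 change 0.02 ± 0.10 SE).

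The genes of the ISG15 system, a ubiquitin-like modifier with its own enzymes, did not share a direction. ISG15 itself had 84.2, 72 and 92.8 CPM in wild type and 90.6, 102 and 75.4 CPM in the knockout-labelled libraries. These ranges overlapped widely, and the gene was not called (log2 change 0.11 ± 0.12 SE, adjusted p = 0.577). UBE2L6, the conjugating enzyme, was lower, from 27.5 ± 2.62 to 22.2 ± 1.36 CPM (log2 change -0.31 ± 0.09 SE, adjusted p = 0.0167). Without wild-type library 3 its adjusted p was 0.103, and without knockout-labelled library 3 it was 0.0949. HERC6, a ligase of the HERC family, was higher, from 14.9 ± 0.249 to 20.1 ± 1.8 CPM (log2 change 0.43 ± 0.10 SE, adjusted p = 0.00229). HERC5, the main human ligase for ISG15 and the next gene on chromosome 4, was below the filter, with 6, 6 and 10 counts in wild type and 2, 3 and 4 in the knockout-labelled libraries. USP18, the protease that removes ISG15 and also dampens interferon signalling, was at 20 ± 2.34 and 19.1 ± 3.32 CPM (adjusted p = 0.701), and 23.4% of its 50-base stretches occur in other genes.

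PARP9 and DTX3L, which form an ADP-ribosyltransferase and ubiquitin ligase pair, were both higher. DTX3L rose from 62.9 ± 2.99 to 81 ± 5.78 CPM (log2 change 0.37, adjusted p = 0.000236) and PARP9 from 40.9 ± 2.05 to 49 ± 4.33 CPM (log2 change 0.26, adjusted p = 0.0164). PARP9 did not pass on leaving out wild-type library 1 (adjusted p = 0.0708) or 3 (0.0557), or knockout-labelled library 3 (0.136). PARP9 and DTX3L are divergent neighbours on chromosome 3 with 217 shared exonic bases on opposite strands, so some reads cannot be assigned. PARP14, a related mono-ADP-ribosyltransferase, was at 78 ± 6.22 and 88.4 ± 5.85 CPM and was not called (adjusted p = 0.064). It passed as higher with upper-quartile scaling (0.0387), total counts (0.0499) or protein-coding genes alone (0.0493), and on leaving out library 2 of wild type (0.00713) or of the knockout-labelled group (0.0409).

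Both immunoproteasome subunits of the panel were higher, beside 12.0% of all tested genes. PSMB8 had 64.6, 61.9 and 61 CPM in wild type and 76.8, 75 and 73.5 CPM in the knockout-labelled libraries, with no overlap and a log2 change of 0.26 ± 0.07 (SE; adjusted p = 0.00353). PSMB9 rose from 17.1 ± 2.27 to 23.6 ± 1.42 CPM (log2 change 0.47 ± 0.10 SE, adjusted p = 0.00122). The genes overlap head to head on chromosome 6, sharing 139 exonic bases on opposite strands, and 18.2% of the 50-base stretches of PSMB8 occur in other genes, so some of their reads cannot be assigned. Of the tripartite motif and nuclear body proteins, TRIM22, an antiviral ubiquitin ligase, rose from 3.76, 5.39 and 5.46 CPM to 10.4, 9.52 and 8.82 CPM (log2 change 0.97 ± 0.16 SE, adjusted p = 3.48e-05). TRIM22 shares 642 exonic bases with OR56B1 on the same strand, which had 0 counts. In all, 13.4% of the 50-base stretches of TRIM22 occur in other genes. TRIM21, the cytosolic antibody receptor, rose from 23.4 ± 2.44 to 32.5 ± 1.97 CPM (log2 change 0.47, adjusted p = 0.000264). SP100, a component of PML nuclear bodies, was at 30.2 ± 1.91 and 34.4 ± 1.15 CPM and was not called (adjusted p = 0.0976), although its groups did not overlap.

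SAMD9 and SAMD9L, neighbouring antiviral factors on chromosome 7, were both higher and both scarce. SAMD9L had 0.578, 0.843 and 0.435 CPM in wild type and 2.26, 2.15 and 1.67 CPM in the knockout-labelled libraries (log2 change 1.69 ± 0.37 SE, adjusted p = 0.000974). With 10, 15 and 7 counts in wild type, SAMD9L met the filter only through the knockout-labelled libraries. SAMD9 had 1.79, 3.54 and 1.68 CPM in wild type and 4.14, 4.6 and 4.89 CPM in the knockout-labelled libraries (log2 change 0.95 ± 0.25 SE, adjusted p = 0.00596). Wild-type library 2 was the highest of its group for both genes, and it remained below every knockout-labelled library.

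The remaining members are strongly inducible genes often used as interferon signatures. Here 3 of the 5 that were tested were higher, beside 12.0% of all tested genes. IFI44, a cytoplasmic antiviral protein, rose from 1.04, 2.14 and 1.18 CPM to 4.78, 6.6 and 5.78 CPM (log2 change 1.97 ± 0.25 SE, adjusted p = 7.46e-07). IFI6, a membrane protein of mitochondria and endoplasmic reticulum, rose from 11.3, 10.5 and 13.7 CPM to 20.9, 29.5 and 20.2 CPM (log2 change 1.0 ± 0.14 SE, adjusted p = 3.98e-05). IFI27, a related small hydrophobic protein, rose from 39.3, 38.3 and 48 CPM to 79.4, 86.5 and 68 CPM (log2 change 0.90 ± 0.09 SE, adjusted p = 3.27e-07). Each of these genes had its 3 knockout-labelled libraries above its 3 wild-type libraries. EPSTI1, named for epithelial-stromal interaction, had 2.49, 1.46 and 1.93 CPM in wild type and 3.1, 2.71 and 2.8 CPM in the knockout-labelled libraries. The EPSTI1 groups were separate, but the gene was not called (log2 change 0.55 ± 0.26 SE, adjusted p = 0.136). IFI35, a partner of NMI, was at 16 ± 0.444 and 17.2 ± 1.75 CPM (adjusted p = 0.507). IFI44L and XAF1 were below the filter: IFI44L had 2, 1 and 0 counts in wild type and 4, 1 and 3 in the knockout-labelled libraries, and XAF1 had 2, 2 and 1 against 3, 10 and 2.

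**Figure D3:**
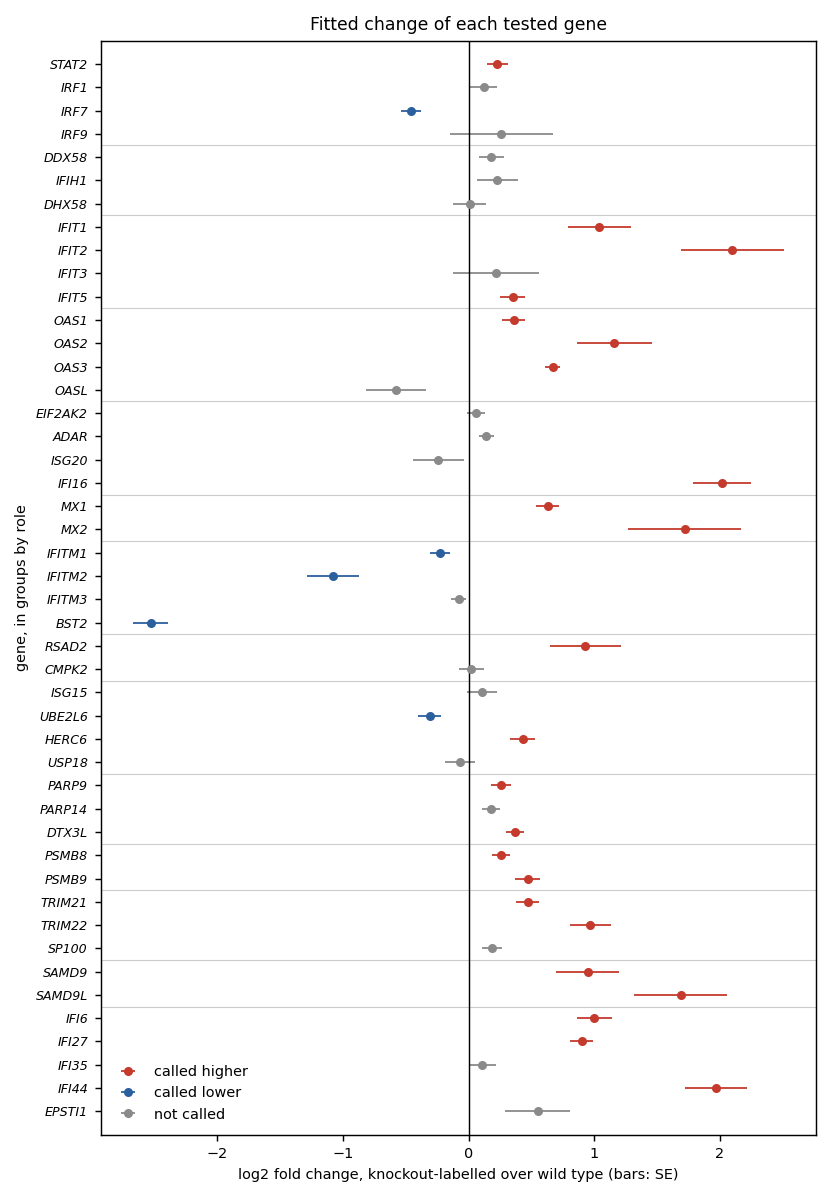
Log2 fold change, knockout-labelled over wild type, of the 46 tested genes (horizontal axis) in groups by role (vertical axis). Bars are SE, red points were called higher (23), blue points were called lower (5) and grey points were not called (18). BST2 lies at -2.53 and IFIT2 at 2.10.

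Levels and changes were then set side by side. Per kilobase of exon length, levels ran from 0.0107 CPM for IFI44L to 124 CPM for IFITM3 over the 6 libraries, followed by ISG15 at 91.6, ADAR at 39.9, IFITM1 at 32.7 and PSMB8 at 23 CPM per kilobase. Of these 5 abundant genes only PSMB8 was called higher, and IFITM1 was called lower. Among the 13 tested members with a mean below 5 CPM, 8 were higher and 1 was lower, with a median log2 fold change of 0.95. These higher genes include MX2, IFIT2 and SAMD9L, whose lowest wild-type counts were 4, 3 and 7, under the filter's minimum of 10. They met the filter only through the knockout-labelled libraries, where they were high, so this count and median were partly set by the filter. The 33 members at or above 5 CPM had 15 higher and 4 lower, with a median of 0.19. Over all tested genes below 5 CPM 11.4% were higher and 8.49% lower, with a median of 0.12. At or above 5 CPM 12.2% were higher and 13.8% lower, with a median of -0.01. Spearman's rho between mean level and the size of the log2 fold change was -0.48 over the 46 members and -0.44 over all tested genes. Genes are not independent replicates, low genes have wider errors, and all points share the same 6 libraries, so these are descriptions.

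**Figure D4:**
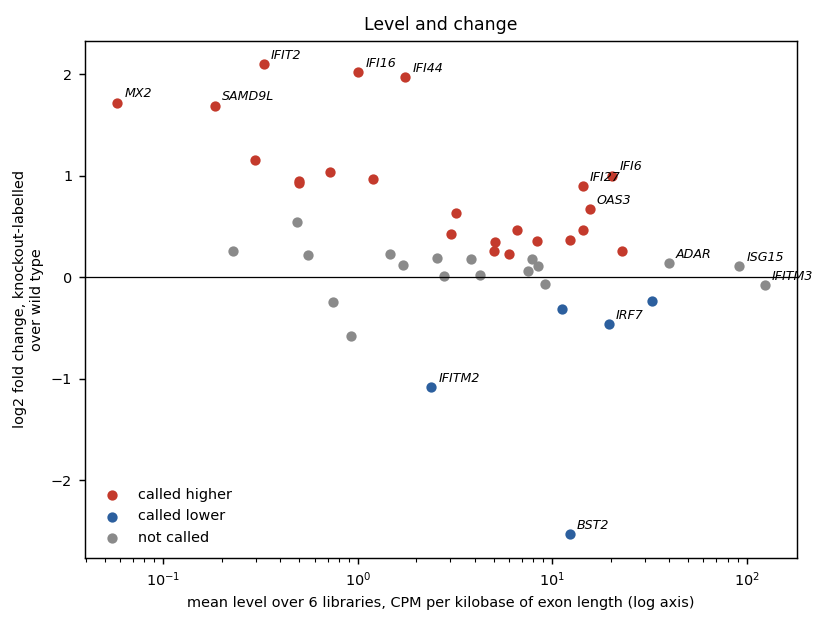
Mean level over 6 libraries in CPM per kilobase of exon length (horizontal, log axis) and log2 fold change, knockout-labelled over wild type (vertical), for the 46 tested genes. Red points were called higher, blue lower and grey not called. The most abundant genes, IFITM3 and ISG15, lie near 0, and the scarce genes spread widely, with BST2 as a moderately abundant gene at -2.53.

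Letters that match the response element were found in genes of every class of outcome. Among genes with a promoter window, the gapped GAAA match was present in 13 of 19 that were higher, 2 of 3 that were lower, 8 of 15 that were not called and 2 of 3 that were not tested. BST2 has matches that overlap, and the IFI6 stretch printed above holds 3. For IRF7, DHX58, IFIT2, OAS2, OASL, MX2, IFITM2, USP18 and TRIM22 no window was used here.

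Other genes of the pathway were described by lists chosen by function, and each count below is set beside the share of all tested genes, 12.0% higher and 12.4% lower. Of the 21 interferon genes themselves, 17 had 0 counts in all libraries and the highest count of any of the others in a library was 7. A count of 0 allows a level of up to 0.195 CPM in the smallest library, counting error only. Of 9 receptor subunits and kinases, 1 was called higher (11.1%, near the 12.0% of all tested genes) and 0 lower (median log2 fold change -0.06). This was JAK2, the kinase of the interferon gamma receptor, at 14 ± 1.72 CPM in wild type and 20.6 ± 1.42 CPM in the knockout-labelled libraries (log2 change 0.55, adjusted p = 0.000349). Without wild-type library 2 the count of higher genes was 2. JAK1, the most abundant of the list, was at 122 ± 1.47 and 117 ± 3.5 CPM and was not called.

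Of 11 tested sensors, adaptors and kinases upstream of interferon production, 3 were higher (27.3%, beside 12.0% of all tested genes) and 2 lower (18.2%, beside 12.4%), with a median of 0.11. TICAM1, the adaptor of TLR3, rose from 21.1 ± 2.55 to 35 ± 1.23 CPM (log2 change 0.73, adjusted p = 6.51e-07). TRAF3, a ubiquitin ligase that links such adaptors to their kinases, rose from 72.5 ± 1.29 to 99 ± 5.09 CPM (log2 change 0.45, adjusted p = 3.52e-06). MAVS, the mitochondrial adaptor of RIG-I and MDA5, rose from 125 ± 8.48 to 154 ± 9.95 CPM (log2 change 0.31, adjusted p = 0.000556). IKBKE was lower, from 14 ± 0.435 to 10.4 ± 0.492 CPM (log2 change -0.43, adjusted p = 0.0059). NLRC5 was also lower, a call described with the antigen loading genes. Of 8 tested negative regulators, among them ISG15 and USP18, edgeR called 0. At an unadjusted p below 0.05 there was 1, and DESeq2 and limma voom called 0. Without wild-type library 3 edgeR called 1 of them higher.

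Of 32 tested further genes known to respond to interferon, 11 were higher (34.4%, beside 12.0% of all tested genes) and 2 lower (6.25%, beside 12.4%), with a median of 0.10. APOL1, an apolipoprotein that lyses trypanosomes, rose from 9.69 ± 0.137 to 15 ± 2.48 CPM (log2 change 0.64, adjusted p = 0.000349), and TDRD7, an inhibitor of autophagy in infected cells, from 28.4 ± 1.67 to 37.6 ± 1.96 CPM (log2 change 0.41, adjusted p = 0.000466). NMI, the partner of IFI35, fell from 33.9 ± 1.21 to 17 ± 0.115 CPM (log2 change -1.0 ± 0.09 SE, adjusted p = 8.21e-10), while IFI35 was not called. LGALS3BP, the most abundant gene of that list, was at 556 ± 29.9 and 531 ± 18.5 CPM and was not called.

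Of 9 tested targets that lean to interferon gamma, 4 were higher (44.4%, beside 12.0% of all tested genes) and 1 lower (11.1%, beside 12.4%), with a median of 0.40. GBP4, a guanylate-binding protein, rose from 0.444 ± 0.313 to 2.51 ± 0.537 CPM (log2 change 2.46, adjusted p = 4.41e-05; 3.17 without wild-type library 2), and GBP3 of the same family from 24 ± 0.698 to 31.7 ± 2.27 CPM (log2 change 0.40, adjusted p = 0.000869). With 3, 14 and 6 counts in wild type, GBP4 met the filter only through the knockout-labelled libraries. SECTM1, a membrane and secreted protein that binds CD7, rose from 38.2 ± 3.28 to 60.2 ± 1.86 CPM (log2 change 0.66, adjusted p = 1.61e-07). WARS, a tRNA synthetase and the most abundant gene of the list, was at 136 ± 2.33 and 125 ± 3.29 CPM and was not called. The 1 lower gene was ICAM1, an adhesion molecule, named after its values were seen. ICAM1 went from 1.03 ± 0.4 to 0.317 ± 0.177 CPM (adjusted p = 0.0148), and on leaving out wild-type library 3, or knockout-labelled library 2 or 3, 0 genes of the list were lower. With 8, 5 and 3 counts in the knockout-labelled libraries, ICAM1 met the filter only through the wild-type libraries.

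Of 10 antigen loading genes, 2 were higher and 1 lower (median 0.08). These shares, 20% and 10%, lie near those of all tested genes (12.0% and 12.4%), and 2 of the 3 calls were lost on leaving out single libraries. ERAP1, which trims peptides, rose from 26.8 ± 2.48 to 34.6 ± 1.35 CPM (log2 change 0.37, adjusted p = 0.00204). TAP1, the peptide transporter, was at 81.6 ± 3.13 and 93 ± 2.55 CPM (adjusted p = 0.0269), and NLRC5, the activator of class I genes, was at 42.2 ± 2.61 and 35.8 ± 1.05 CPM (adjusted p = 0.0259). TAP1 did not pass on leaving out wild-type library 1 (adjusted p = 0.111) or 2 (0.0647), or any knockout-labelled library (0.0558, 0.113 and 0.0544). NLRC5 did not pass on leaving out wild-type library 1 (0.0615) or 2 (0.0922) or knockout-labelled library 1 (0.0795) or 2 (0.0785). B2M, the light chain of class I molecules, was at 393 ± 32.4 and 439 ± 36 CPM and was not called (adjusted p = 0.0848). It passed as higher with upper-quartile scaling (0.0483) or total counts (0.0316), and on leaving out library 3 of wild type (0.0158) or of the knockout-labelled group (0.0469).

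Of 13 NF-kB feedback and chemokine genes, 3 were higher (23.1%, beside 12.0% of all tested genes) and 4 lower (30.8%, beside 12.4%), with a median of 0.04. The chemokine genes CCL20 and CXCL2 fell, CCL20 from 38.5 ± 4.48 to 19.7 ± 2.91 CPM (log2 change -0.97, adjusted p = 1.46e-07) and CXCL2 from 65.4 ± 7.03 to 43.6 ± 4.28 CPM (log2 change -0.58, adjusted p = 8.79e-06). CXCL1 rose from 57.6 ± 3.91 to 76.3 ± 0.874 CPM (log2 change 0.40, adjusted p = 5.63e-05). IER3, the most abundant gene of the list, was at 182 ± 9.73 and 187 ± 16.1 CPM and was not called.

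**Figure D5:**
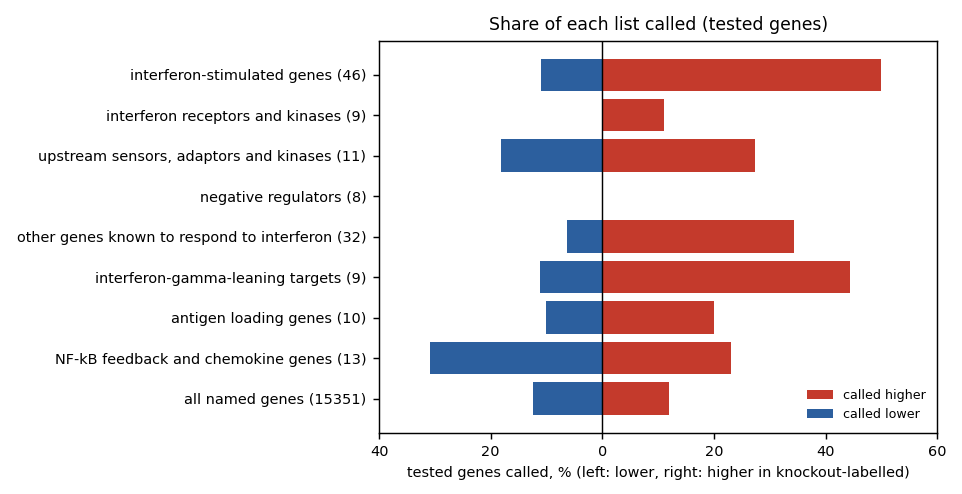
Share of tested genes called higher (red, to the right) and lower (blue, to the left) in the knockout-labelled libraries, in percent, for the interferon-stimulated genes, 7 pathway lists and all named genes, with the number tested in brackets. The interferon-stimulated genes reach 50% higher and 10.9% lower, and all tested genes 12.0% and 12.4%.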

How the data were processed

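Values deposited by the authors are whole-number counts of reads per gene without normalization, in 58967 rows, of which 232 without a gene name (0.13 to 0.25% of counts) were left out. The submitters' processing notes name HISAT2 2.0.5 and featureCounts 1.5.0-p3, and list mm10, although the table holds human genes whose positions and lengths equal GENCODE 29 on GRCh38. For the strand setting and multiply matching reads the sources used here give nothing, so reads of overlapping genes cannot be told apart. Groups came from the genotype labels.

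Counts were tested with edgeR 4.0.16 (R 4.3.3, quasi-likelihood, two-sided, robust, TMM, filterByExpr with a minimum count of 10, no covariate) over 15351 genes with Benjamini-Hochberg adjustment, and called at an adjusted p below 0.05. The members and lists were chosen with earlier results of these data known, and support no test over members. Values per library are given for called members with a log2 change of 0.5 or more either way, uncalled ones at least that large, and the 5 most abundant per kilobase. From each pathway list, means with SD are given for up to 3 called genes by smallest p and for the most abundant. Some others, among them IRF7, STAT2 and IKBKE, were added after their values were seen. Alternatives were other scalings and filters, DESeq2 1.42.0, limma 3.58.1 (voom), non-robust edgeR, a fit on protein-coding genes, a replicate block, and leaving out each library. On simulated counts of this comparison (15066 genes) edgeR recovered 77.3% of genes changed 1.5-fold, 80% changed 2-fold and 100% changed 4-fold, and 9 of 174 calls were false. Only 66, 65 and 62 genes were changed, at any level of expression, whereas 24.3% of tested genes were called in the data. These rates therefore need not hold for the data or for scarce members. Shared sequence was measured as 50-base stretches of annotated exons found in other genes. Python 3.11.15 made tables and plots.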

Additional observations from a re-analysis of the deposited data

How the results depend on the processing

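Of the 28 called members, 22 passed under all 16 alternatives (19 of the 23 higher and 3 of the 5 lower, which were IRF7, IFITM2 and BST2), and 0 changed direction. The counts of members were 22 to 25 higher and 4 or 5 lower under other scalings, filters and tools. With a library left out they were 20 to 24 higher and 3 to 5 lower, beside 1329 to 2189 higher and 1376 to 2401 lower over all genes. The median log2 fold change of the members stayed between 0.24 and 0.29. Same-numbered libraries did not deviate together (r of 0.0277, -0.0977 and -0.123). These values show no pairing by number, but they cannot tell whether the libraries were prepared in pairs. With the replicate block the members had 22 higher and 4 lower and all genes 1478 and 1475, STAT2 and IFITM1 missed the threshold (adjusted p = 0.0762 and 0.0846), and the block also gave 1 lower upstream gene, 1 higher and 0 lower antigen loading genes. Upper-quartile scaling gave 2 higher receptor and kinase genes, and total counts gave 1 lower upstream gene and 0 lower antigen loading genes. Without a filter there was 1 higher negative regulator and 1 higher antigen loading gene, and DHX58 was at -0.0048. A CPM of at least 1 in 3 libraries left 0 lower interferon gamma targets, because ICAM1, the 1 lower gene, did not meet this filter. With a library left out the ranges were 1 to 2 higher receptor and kinase genes, 1 to 2 lower upstream genes, 0 to 1 higher negative regulators, 0 to 1 lower interferon gamma targets, and 1 to 3 higher and 0 to 1 lower antigen loading genes. Of uncalled genes near 0, log2 fold changes ranged from -0.08 to 0.10 for DHX58, -0.01 to 0.12 for EIF2AK2, -0.01 to 0.07 for CMPK2, -0.0013 to 0.22 for ISG15, -0.22 to 0.02 for USP18 and -0.03 to 0.09 for IER3. The cause of these shifts was not tested. Depth limits the scarcest genes: HERC5, IFI44L and XAF1 had at most 10 counts in a library, and levels under about 3 counts cannot be told from 0.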
